A study of Mus musculus with 9 samples.

Results

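The genes of the AP-1 transcription factor family, Fos, Fosb, Fosl1, Fosl2, Jun, Junb, Jund and Atf3, were followed in mouse mammary epithelial cell preparations on 9 whole-transcript arrays. Members were the array rows whose single gene symbol is one of these 8 names, and the choice of rows used no difference between groups. All 8 genes were found, each on 1 row, among 19938 genes in all. The mock sorted cells had been freed from mammary fat with collagenase, digested with trypsin and then put through a mock run of fluorescence-activated cell sorting. The trypsinized cells had collagenase and then trypsin. The untrypsinized cells had collagenase only. Each group has 3 arrays labelled as biological replicates, all from wild-type C3H female mice 8 to 9 weeks old. The labels do not say which animals gave which array, so p-values measure the spread between these arrays, part of which may be technical. Every group had been through dissection and collagenase, and no undissociated tissue is among the arrays.

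AP-1 is a pair of proteins that grip each other through a leucine zipper and bind DNA through the basic region beside it. JUN proteins can pair with one another or with a FOS protein, whereas FOS proteins need a JUN partner, and ATF3 pairs with JUN proteins or with itself. Most of these genes are immediate early genes, whose transcripts appear within minutes of growth factor, stress or wounding signals and decay quickly. Enzymatic and mechanical release of cells from tissue is a known trigger of this response.

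In collagenase-only cells all 8 members already lay among the bright rows of the arrays. On the log2(intensity + 1) scale, the median gene averaged 9.21 on untrypsinized arrays, the upper quartile began at 10.65 and the top 5% began at 12.15. The 1027 olfactory receptor genes, which mammary cells are not known to use, had a median of 6.53 and a 95th percentile of 8.05. The lowest member mean on untrypsinized arrays, that of Fosl2, was 12.05 ± 0.04 (SD, n = 3). A row's brightness depends on its probes as well as on the RNA, so these positions describe the rows and set no order among the 8 genes.

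Among the FOS genes, Fos averaged 13.15 ± 0.03 in untrypsinized cells, a level above that of 99.3% of the genes. Fosb averaged 13.61 ± 0.03, with 99.9% of genes dimmer. Fosl1, which encodes FRA-1, averaged 12.23 ± 0.02, with 95.7% of genes dimmer. Fosl2, which encodes FRA-2, had 94.3% of genes dimmer. FRA-1 and FRA-2 are known to be induced later and to last longer than FOS and FOSB after a stimulus. Among the JUN genes, Jun averaged 13.36 ± 0.01, with 99.7% of genes dimmer. Junb averaged 12.39 ± 0.03, with 96.6% dimmer, and Jund averaged 13.02 ± 0.03, with 99.1% dimmer. JUN is the strong activator of the JUN proteins, and JUND is the member with the steadiest level in resting cells. Atf3, a stress-induced gene, averaged 13.49 ± 0.04, with 99.8% of genes dimmer (SD, n = 3 for each mean). Only 24 genes were brighter than Fosb and only 45 brighter than Atf3 in untrypsinized cells. The highest row of each array reached between 19128 and 20372 intensity units, above the highest member value of 12846.

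**Figure D1:**
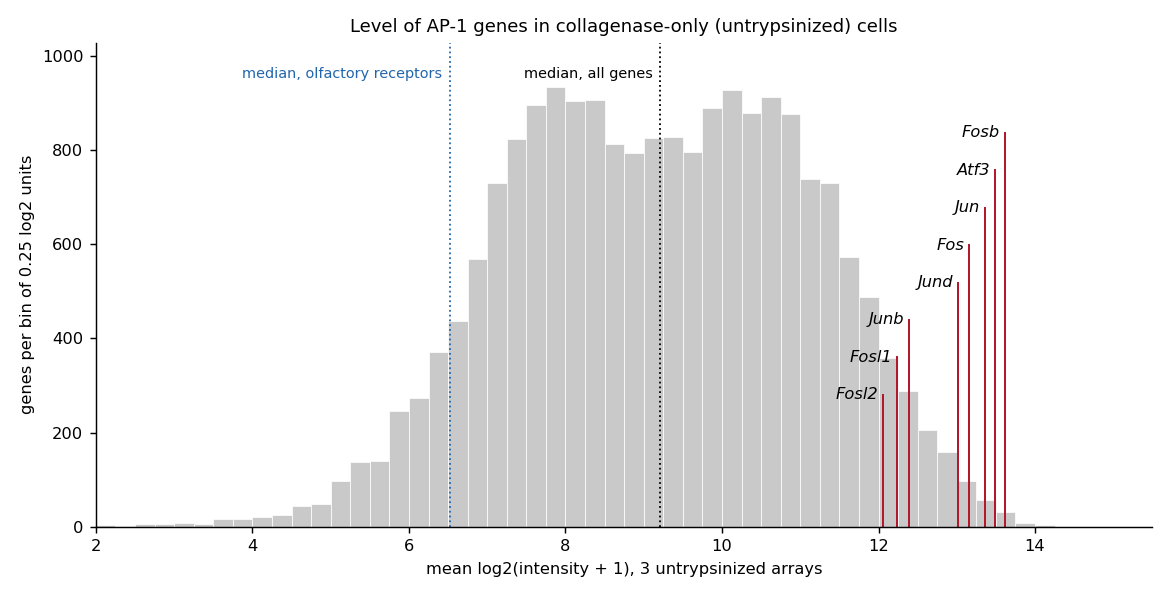
Distribution of the mean log2(intensity + 1) of 19938 genes over the 3 untrypsinized arrays (grey bars, genes per bin), with the 8 AP-1 genes as red lines whose heights only separate the labels. Dotted lines mark the median of all genes, 9.21, and the median of the olfactory receptor genes, 6.53, and every member lies at 12.05 or above.

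No member reached the 1.5-fold change that the study's design text asks for, in any comparison. The members lay near the top of the intensity scale, and whether such bright rows understate a rise was not tested. With that fold and an adjusted p of 0.05 or below, limma called 0 of 8 members in trypsinized over untrypsinized cells, where it called 1.46% of all genes. It called 0 of 8 in mock sorted over trypsinized cells, where it called 1.19% of all genes, and 0 of 8 in mock sorted over untrypsinized cells, where it called 4.47%. With the unadjusted p in place of the adjusted one the count was again 0 in all 3 comparisons. With the same adjusted p and no minimum fold, 4 of 8 members passed in the first comparison, where 25.4% of all genes did, and 1 of 8 passed in the second, where 4.67% did. In the third, 5 of 8 passed, where 39% of all genes did. Among the 1336 genes at least as bright as the dimmest member, the shares passing with no minimum fold were 21.8%, 3.22% and 36.9% in the same order. A moderated F test over the 3 groups passed 4 members, Fos, Fosl1, Fosl2 and Jun, and 33.2% of all genes.

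Replicates of each member lay close together, though this spread does not measure a shift of scale between the groups. The SD within groups, pooled over the 3 groups, ran between 0.014 log2 units for Jun and 0.052 for Junb. Its median was 0.078 over all genes and 0.034 over genes at least as bright as the dimmest member. The values of each member on each array are plotted by group.

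**Figure D2:**
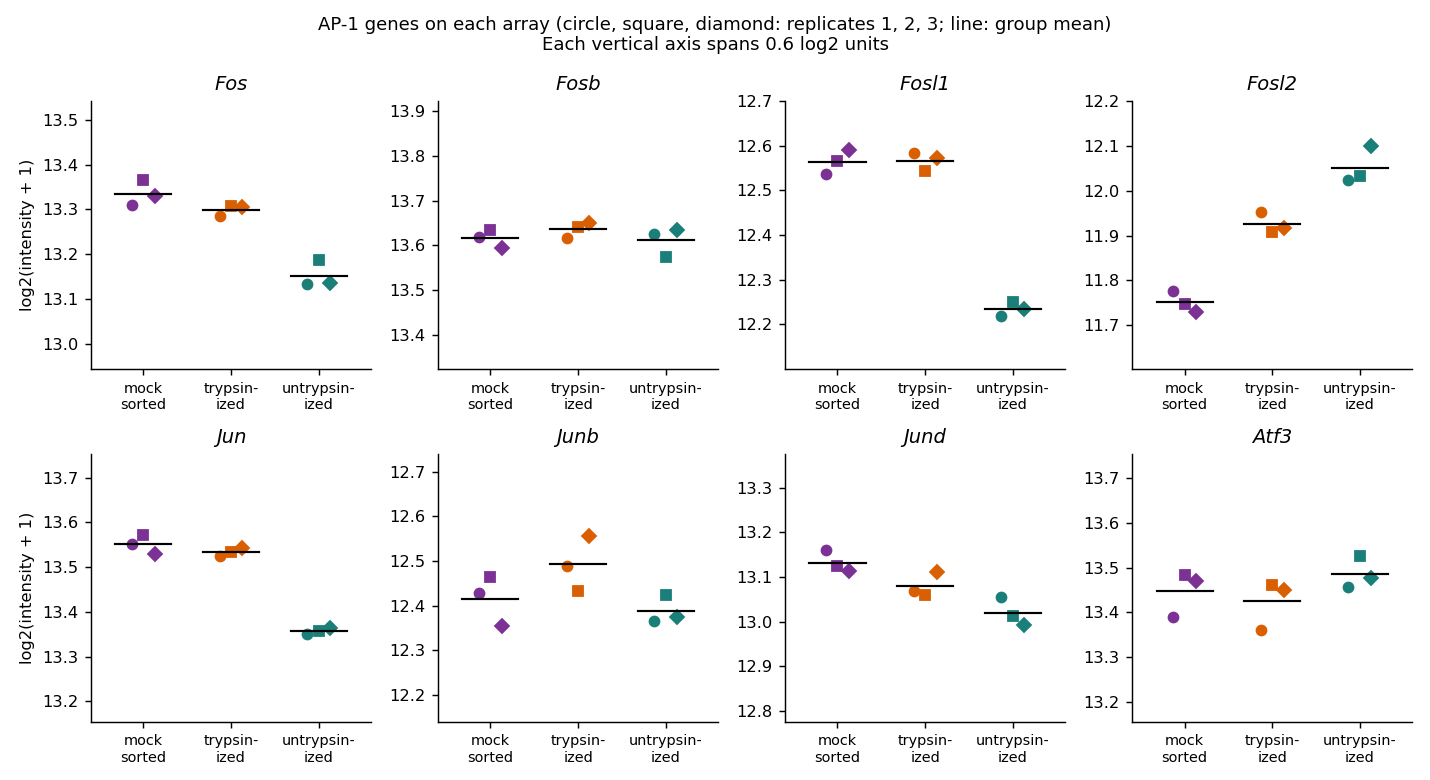
Level of each AP-1 gene as log2(intensity + 1) on every array, by group (mock sorted, trypsinized, untrypsinized), with circles, squares and diamonds for replicates 1, 2 and 3 and a line at the group mean. Each vertical axis spans the same 0.6 log2 units, and Fosl1, Fos and Jun sit lower in untrypsinized cells while Fosl2 sits highest there.

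After trypsin, Fosl1 rose most among the members, Jun and Fos rose by less, and Fosl2 fell. Fosl1 had intensities of 6134, 5968 and 6087 on the trypsinized arrays, against 4765, 4872 and 4816 on the untrypsinized arrays. The groups did not overlap, and the lowest trypsinized array was above the highest untrypsinized one. The change was 0.33 log2 units with a standard error of 0.03, or 1.26-fold (limma adjusted p = 0.000604). Its 95% interval ran from 0.26 to 0.41 log2 units.

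Jun had 11795, 11853 and 11941 units on the trypsinized arrays, against 10444, 10487 and 10550 on the untrypsinized arrays. The groups lay apart, and the arrays of each group were spread over less than the gap between the groups. The change was 0.18 ± 0.03 (SE) log2 units, or 1.13-fold (limma adjusted p = 0.00572). Fos had 9979, 10133 and 10127 units on the trypsinized arrays, against 8977, 9327 and 9002 on the untrypsinized arrays. All 3 trypsinized arrays were above all 3 untrypsinized arrays, among which replicate 2 was the highest. The change was 0.15 ± 0.03 (SE) log2 units, or 1.11-fold (limma adjusted p = 0.0162).

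Fosl2 moved the other way. It had 3964, 3840 and 3867 units on the trypsinized arrays, against 4163, 4188 and 4389 on the untrypsinized arrays. The groups did not overlap. The change was -0.13 ± 0.04 (SE) log2 units (limma adjusted p = 0.0359), and that call was lost in 12 of 21 alternative settings. Among them were 8 of the 9 fits that left out 1 array, with adjusted p up to 0.0992.

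The remaining members did not pass the test in this comparison. Junb had 5742, 5529 and 6024 units on the trypsinized arrays, against 5279, 5492 and 5305 on the untrypsinized arrays. Its groups did not overlap, yet the change of 0.10 log2 units had an adjusted p of 0.129 by limma and an interval that ended at 0.21 and began just below 0. Jund had 8595, 8531 and 8852 units on the trypsinized arrays, against 8511, 8263 and 8155 on the untrypsinized arrays, again without overlap. That change was 0.06 log2 units (limma adjusted p = 0.238). In all, the groups did not overlap for 6 of 8 members, and for 44.4% of all genes. Fosb had 12548 to 12846 units on the trypsinized arrays, against 12199 to 12708 on the untrypsinized arrays. Fosb and Atf3 overlapped between the groups, with changes of 0.02 (limma adjusted p = 0.623) and -0.06 (limma adjusted p = 0.329). Their 95% intervals were -0.05 to 0.10 for Fosb and -0.16 to 0.04 for Atf3, so a measured change of 1.5-fold lies outside both. The brightest gene averaged 14.11 log2 units on untrypsinized arrays. The intervals describe measured intensities, and whether these 2 rows understate a change of the RNA itself was not tested.

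The scaling between arrays moved these changes. With the median of all 35512 rows made equal on every array, the median change of all genes after trypsin was -0.09 log2 units, against 0.04 as deposited. The members' median was -0.05, against 0.08 as deposited, and 1 member passed upward and 2 downward, against 3 and 1. Of 19938 genes, 746 passed upward and 5666 downward there, against 2766 and 2289 as deposited. This setting moves every gene by nearly the same amount, so changes relative to the median of all genes stay as deposited by construction, at 0.29 for Fosl1, 0.14 for Jun, 0.11 for Fos and -0.17 for Fosl2. Under quantile normalization over all rows the relative changes were 0.40, 0.19, 0.19 and -0.08 for the same genes, with an all-gene median of -0.05. Under the common median Fosl1 still rose, by 0.20 (limma adjusted p = 0.0110), and Fosl2 still fell, by 0.26 (limma adjusted p = 0.00244). Jun and Fos did not pass there, at 0.04 (limma adjusted p = 0.533) and 0.01 (limma adjusted p = 0.872). Atf3 passed as lower there, at -0.20 (limma adjusted p = 0.0324), and the changes of Fosb, Junb and Jund turned negative without passing. Quantile normalization left the signs of all 8 changes and the same 4 calls. A common median over the genes tested left the signs too, but Fos did not pass there, at 0.13 (limma adjusted p = 0.0579).

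**Figure D3:**
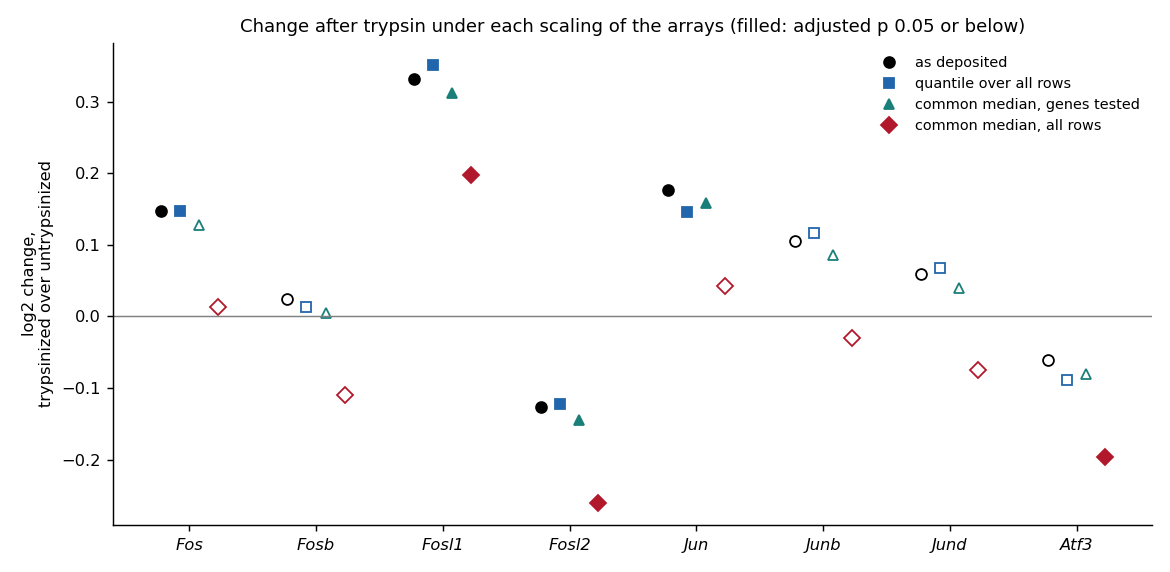
Change of each AP-1 gene in trypsinized over untrypsinized cells (vertical axis, log2) under the deposited scaling and 3 other scalings of the arrays, with filled marks for an adjusted p of 0.05 or below. Fosl1 is above 0 and Fosl2 below 0 and both filled under all 4, whereas the common median over all rows brings Jun and Fos to 0.04 and 0.01.

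The mock sort, compared with trypsin alone, left most members near their trypsinized level. Only Fosl2 passed the test, with 3507, 3437 and 3395 units on the mock sorted arrays, against 3964, 3840 and 3867 on the trypsinized arrays. The groups did not overlap, and the change was -0.17 ± 0.04 (SE) log2 units (limma adjusted p = 0.0308). Same-numbered mock sorted and trypsinized arrays deviated together, and with the replicate number as a block the adjusted p was 0.0712. The Fosl2 call was also lost in 7 of the 9 fits that left out 1 array, with adjusted p up to 0.129.

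Fosl1 overlapped between the groups, at 5937, 6062 and 6168 units against 6134, 5968 and 6087 in trypsinized cells. The change was -0.0019 log2 units with a 95% interval of -0.08 to 0.07. Fos had 10147, 10551 and 10289 mock sorted units, all above its trypsinized values, with a change of 0.04 that did not pass (limma adjusted p = 0.667). Jund had 9148, 8923 and 8854 mock sorted units, again all above its trypsinized values, with a change of 0.05 that did not pass (limma adjusted p = 0.519). With Fosl2, the groups did not overlap for 3 of 8 members, and for 24% of all genes. Junb had 5509, 5650 and 5234 mock sorted units, and Fosb had 12369 to 12711. Jun, Fosb, Junb and Atf3 overlapped between the groups, with changes between -0.08 for Junb and 0.02 for Atf3. All 8 intervals of this comparison lay well inside the 1.5-fold limits, the widest reach being that of Fosl2, to -0.26.

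The third comparison, mock sorted over untrypsinized cells, is not in the study's design text and shares its arrays with the other comparisons. Fosl1 was 0.33 ± 0.03 (SE) log2 units higher (limma adjusted p = 0.000155) and Fosl2 was 0.30 ± 0.04 lower, or 1.23-fold (limma adjusted p = 0.000445). Their calls held under all 21 alternative settings, and Fosl1's rise after trypsin did as well. Jun had 12008, 12180 and 11819 units on the mock sorted arrays, above its untrypsinized values given above, with a change of 0.19 (limma adjusted p = 0.00177). Fos changed by 0.18 (limma adjusted p = 0.00385). Jund, which encodes the JUN protein that is known to slow growth in some cells, changed by 0.11 (limma adjusted p = 0.0355). The Jund call was lost in 11 of 21 settings, and with a common median over all rows its change was -0.04 (limma adjusted p = 0.624). There, 1 member passed upward and 2 downward, against 4 and 1 as deposited. Of 19938 genes, 1235 passed upward and 6799 downward there, against 4189 and 3588 as deposited. Fosb, Junb and Atf3 changed by less than 0.04 log2 units in either direction and did not pass. Groups did not overlap for 5 of 8 members, and for 52.1% of all genes.

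**Figure D4:**
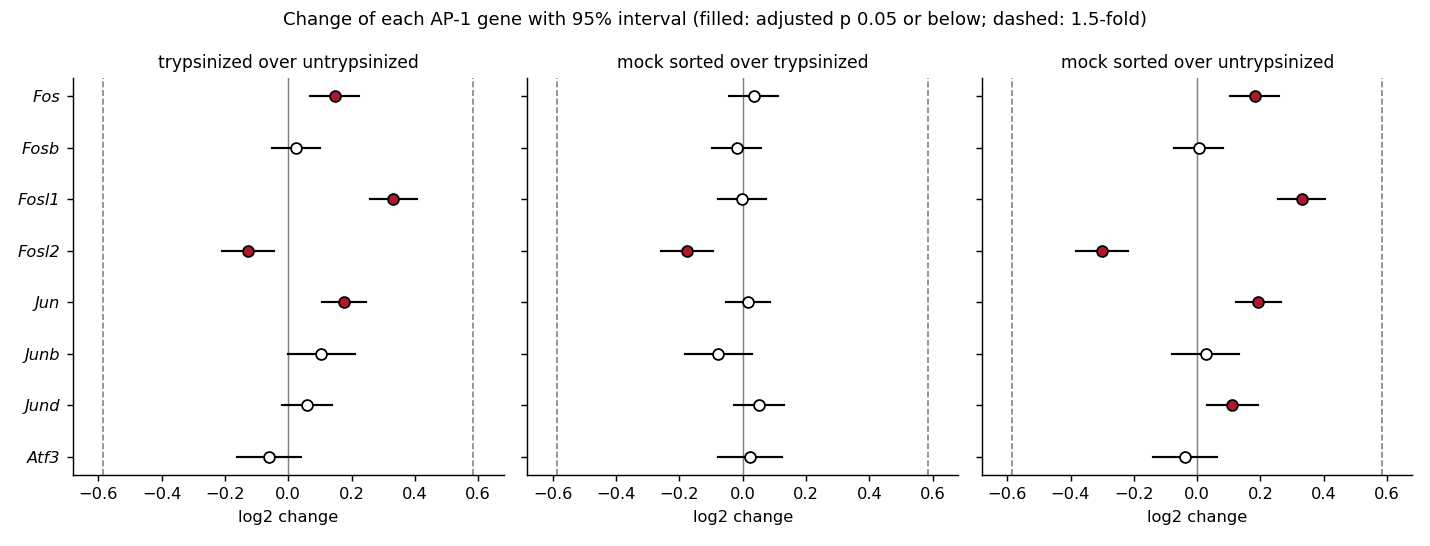
Change of each AP-1 gene in the 3 comparisons (horizontal axis, log2; bars are 95% intervals from limma, n = 3 arrays per group), filled where the adjusted p is 0.05 or below. Dashed lines mark a 1.5-fold change, which no interval reaches.

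Members differed in how their levels ran over the 9 arrays. Each gene was centred on its mean over the arrays, and likeness was the root mean square difference of 2 centred profiles, in log2 units. Fos and Jun, partners in the classic AP-1 pair, had the most similar profiles of the 28 pairs, with a difference of 0.022. Fosl1 and Fosl2 had the least similar, with 0.268. Genes outside the family, named below, lay closer to Fos and to Jun than these did to each other. Atf3 was lowest in replicate 1 of every group, at 10734 mock sorted, 10522 trypsinized and 11240 untrypsinized units. Its other mock sorted values were 11445 and 11349, the other trypsinized ones 11284 and 11192, and the other untrypsinized ones 11788 and 11397.

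Other genes with close profiles were taken from 9659 candidates above the median level. Those nearest to Fosl1 were Vegfa, a growth factor for blood vessels, then Pkp3, a desmosome protein, then Trim16, at differences of 0.021, 0.026 and 0.026. Those nearest to Fos were Basp1, Trp53bp2 and Jup, all at 0.016. Those nearest to Jun were Ap5z1, at 0.014, then Abhd2 and Usp19, both at 0.020. Those nearest to Fosl2 were Notch3, a NOTCH receptor, at 0.022, then Fzd7, a WNT receptor, and Atp8b2, both at 0.024.

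Promoters are shown for Fos and Jun, which rose after trypsin as deposited, and for Fosl2, which fell. A link between these sequences and the changes was not tested. The stretches below are the 150 bases before the annotated start of each gene, 5′ to 3′ on the gene's strand, from RefSeq with the GRCm38.p6 build. They are chr12:85473740-85473889 on the plus strand for Fos, chr4:95052223-95052372 on the minus strand for Jun and chr5:32136322-32136471 on the plus strand for Fosl2. Capitals mark TGACG, TGACATCA and TATAAA.
Fos: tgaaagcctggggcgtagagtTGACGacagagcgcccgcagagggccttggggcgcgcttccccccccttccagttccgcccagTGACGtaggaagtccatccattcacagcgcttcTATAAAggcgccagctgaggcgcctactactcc
Jun: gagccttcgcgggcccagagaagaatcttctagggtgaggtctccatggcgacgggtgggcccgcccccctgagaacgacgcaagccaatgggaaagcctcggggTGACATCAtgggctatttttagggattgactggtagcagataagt
Fosl2: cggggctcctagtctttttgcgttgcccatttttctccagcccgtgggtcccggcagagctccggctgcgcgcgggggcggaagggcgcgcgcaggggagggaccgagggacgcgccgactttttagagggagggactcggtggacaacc

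TGACG is the core of the cyclic AMP response element, TGACATCA is a variant AP-1 element, and TATAAA is a TATA box. These letters were chosen with the promoters in view. The 250 bases before the start were searched on both strands in 32851 promoters, of which 7 belong to members, Fosl1 having no entry. Fos held TGACG at 129 and 66 bases before the start and TATAAA at 33. Jun held TGACATCA at 45, and the printed Fosl2 stretch held none of the 3. TGACG was also found 60 bases before the start of Fosb, 106 before that of Junb and, on the opposite strand, 7 before that of Atf3. Jund held none. Of all promoters, 17.8% held TGACG, 2.93% held TGACATCA and 12.4% held TATAAA. The full elements TGANTCA and TGACGTCA, the second of which contains TGACG, were in 6.75% and 1.55% of promoters and in none of the 7. The CArG box, the serum response factor site, was in 1.47% and in none of the 7 within these 250 bases. Sites further from the start were not searched, so this does not show that a gene lacks one. A match describes the letters and does not show binding.

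Textbook target genes of AP-1 moved in both directions after trypsin, more of them upward. Of 22 measured, 13 passed upward and 2 downward in trypsinized over untrypsinized cells, against 13.9% and 11.5% of all genes. This list and those below were chosen with earlier results of these data known, so the shares only describe them. The median change of the 22 targets was 0.22 log2 units, against 0.04 over all genes. Krt6a, a wound-induced keratin, rose by 0.46 (limma adjusted p = 0.000263), Plaur, the urokinase receptor, by 0.44 (limma adjusted p = 0.000651) and Vegfa by 0.32 (limma adjusted p = 0.00124). Il6, an inflammatory cytokine, fell by 0.40 (limma adjusted p = 0.00398), and the other gene that fell was Mmp3, a matrix protease, at -0.32. With the arrays at a common median over all rows, 5 passed upward and 4 downward, where 746 and 5666 of 19938 genes did. The targets' median was 0.09 there. Between 8 and 12 passed upward when 1 array was left out, the 8 being without untrypsinized replicate 1 or without trypsinized replicate 1 or 2. With only the 6 arrays of those groups and the replicate number as a block, 4 passed upward.

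After the mock sort, against trypsinized cells, 0 of these targets passed upward by limma and 2 passed downward, against 0.466% and 4.2% of all genes (2 upward and 7 downward by the unadjusted p). Il6 fell by 0.83 log2 units (limma adjusted p = 0.000253), past the 1.5-fold threshold, and Mmp13, a collagenase, by 0.26 (limma adjusted p = 0.0299). With the replicate number as a block Il6 alone passed. Against untrypsinized cells, mock sorted cells had 10 targets that passed upward and 3 downward, against 21% and 18% of all genes. Krt6a was at 0.58 there and Il6 at -1.24 (limma adjusted p = 1.03e-05 and 4.47e-06). With a common median over all rows 4 passed upward and 6 downward, where 1235 and 6799 of 19938 genes did.

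Genes that end the early response, phosphatases of MAP kinases and factors of transcript decay, passed only upward as deposited. After trypsin 8 of 14 rose and 0 fell by limma (10 upward and 0 downward by the unadjusted p), against 13.9% and 11.5% of all genes. Their median was 0.15, against 0.04 over all genes. Dusp10 and Dusp4, which inactivate stress and ERK kinases, rose by 0.39 (limma adjusted p = 0.00109) and 0.31 (limma adjusted p = 0.000556). Ier5, an early response gene, rose by 0.33 and Dusp5, a nuclear ERK phosphatase, by 0.29. With a common median over all rows, where 746 of 19938 genes passed upward, 4 of the 14 did. Without untrypsinized replicate 1, or without trypsinized replicate 1, 5 did, and without replicate 1 of both the trypsinized and the mock sorted arrays 4 did. After the mock sort, Dusp4 alone passed against trypsinized cells, at 0.14, where 4.67% of all genes passed. Dusp4 did not pass with the replicate number as a block or in 7 of the 9 fits that left out 1 array. Against untrypsinized cells, 7 of 14 rose and 0 fell in mock sorted cells by limma, where 21% and 18% of all genes did. With a common median over all rows 2 passed upward and 1 downward, where 1235 and 6799 of 19938 genes did.

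Other early transcription factors, of the EGR, NR4A and KLF families, went both ways after trypsin, with 2 of 13 up and 3 down, against 13.9% and 11.5% of all genes. Klf5 and Klf6 rose, by 0.16 and 0.15, while Nr4a2 fell by 0.27 (limma adjusted p = 0.00322), Egr2 by 0.19 and Nr4a1 by 0.16. Egr1, the best known of them, changed by 0.05 (limma adjusted p = 0.322). With a common median over all rows 0 passed upward and 6 downward by limma, where 746 and 5666 of 19938 genes did. As deposited, 1 passed upward without untrypsinized replicate 2 or without trypsinized replicate 1 or 3. After the mock sort Nr4a2 alone passed against trypsinized cells, at -0.23 (limma adjusted p = 0.0152), where 4.67% of all genes passed. The Nr4a2 call was lost without replicate 1 or 2 of the trypsinized or 2 or 3 of the mock sorted arrays. Between mock sorted and untrypsinized cells 3 passed upward and 5 downward, against 21% and 18% of all genes, with Nr4a2 at -0.50.

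Among 23 other bZIP genes, which encode possible partners of AP-1 proteins, 4 rose and 1 fell after trypsin, a share upward close to the 13.9% of all genes and a share downward below their 11.5%. Mafg, a small MAF protein, rose by 0.29 (limma adjusted p = 0.00612), and Batf2, Jdp2 and Atf7 rose by 0.20 to 0.22. Cebpd fell by 0.16 after trypsin and by a further 0.21 after the mock sort (limma adjusted p = 0.0216). It was the only gene of the 23 to pass there, against 4.67% of all genes. This call was lost without replicate 1 or 2 of the trypsinized or 2 or 3 of the mock sorted arrays. With a common median over all rows 1 passed upward and 4 downward after trypsin, where 746 and 5666 of 19938 genes did. As deposited, 2 passed upward without untrypsinized replicate 1 or 2 or trypsinized replicate 1 or 3. In mock sorted over untrypsinized cells 4 passed in each direction, where 21% and 18% of all genes did, and Crem, a cyclic AMP responsive factor, was at -0.43.

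Of 15 measured MAP kinase pathway genes, which carry signals to AP-1, 2 passed upward and 2 downward after trypsin, close to the 13.9% and 11.5% of all genes. Map2k4, a kinase of the JNK branch, rose by 0.22, and Map3k8, an upstream kinase, fell by 0.24. With a common median over all rows 0 passed upward by limma and 6 downward, where 746 and 5666 of 19938 genes did. Leaving out single untrypsinized or trypsinized arrays gave 1 or 2 upward and 0 to 3 downward. After the mock sort 0 passed against trypsinized cells by limma, where 4.67% of all genes did, with 1 upward and 2 downward by the unadjusted p. Of 6 genes for serum response factor and its cofactors, Elk3 alone passed in each comparison. It was at -0.28 after trypsin, -0.45 after the mock sort and -0.73 in mock sorted over untrypsinized cells (limma adjusted p = 2.98e-05). The shares of all genes that passed were 25.4%, 4.67% and 39% in the same order.

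**Figure D5:**
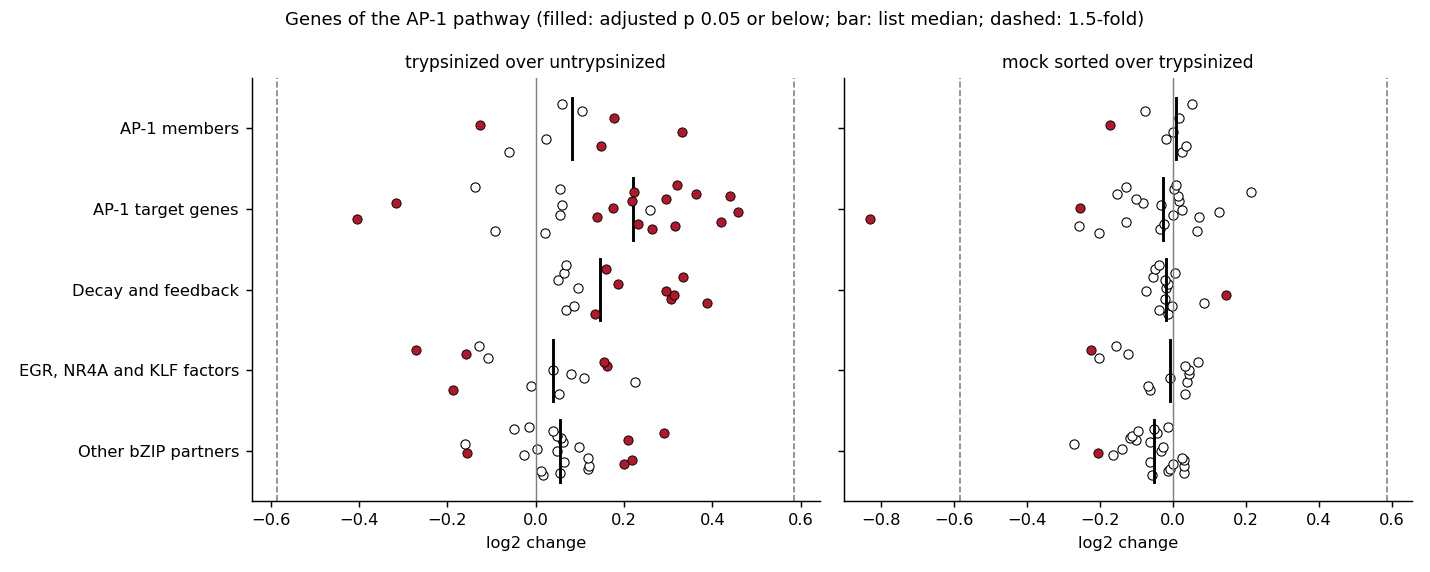
Change of each AP-1 gene and of genes in 4 related lists, in trypsinized over untrypsinized (left) and mock sorted over trypsinized cells (right), in log2 units, with filled points for an adjusted p of 0.05 or below. Black bars are list medians and dashed lines mark 1.5-fold, and the medians for AP-1 members are 0.08 and 0.01.

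The labels name epithelial cells, and markers of other cell types were present and differed between the groups. In RNA of whole preparations, fewer cells of a type and less RNA per cell cannot be told apart. Summed intensities of 19 endothelial markers were 19015 to 22561 in mock sorted, 40484 to 41073 in trypsinized and 52137 to 59367 in untrypsinized cells. Those of 11 pericyte and vascular muscle markers, Notch3 among them, were 8621 to 9385, 14437 to 14806 and 18070 to 20191 in the same groups. Notch3 fell least of the 11, at -0.32 in mock sorted over untrypsinized cells, where the list median was -0.93. Sums of 14 adipocyte markers were 12379 to 13847, 20937 to 21635 and 25706 to 29394. The adipocyte sum does not describe every marker. In mock sorted over untrypsinized cells 9 of the 14 passed as lower, against 18% of all genes, and changes ran from -2.19 to 0.19. Sums of 15 fibroblast markers were 44807 to 49421, 48949 to 53979 and 54643 to 60937. Sums of 17 luminal epithelial markers were 125683 to 126741, 122579 to 123550 and 113340 to 116594. They were lowest in untrypsinized cells, where Fosl1, Jun and Fos and the lymphocyte sums given below were lowest too. Luminal sums were higher in mock sorted than in trypsinized cells, a step at which Fosl1 changed by -0.0019 log2 units. Sums of 18 basal markers were 84365 to 85797, 91798 to 93513 and 95945 to 97958. The endothelial, pericyte, adipocyte and basal sums ran in the same order of groups as Fosl2 without overlap, and the fibroblast ranges of mock sorted and trypsinized cells overlapped. No marker of these lists was at 0, but rows of unused genes also give signal, so this does not show expression. Adipoq, the dimmest adipocyte marker, averaged 7.81 log2 units in mock sorted, 7.74 in trypsinized and 7.79 in untrypsinized cells. The olfactory 95th percentile on untrypsinized arrays was 8.05. Sums of 14 lymphocyte markers were 19544 in mock sorted replicate 1, 22282 in trypsinized replicate 1, 7746 to 9327 in the other arrays of those groups and 5393 to 5796 in untrypsinized cells. The part of any of these cell types in the AP-1 changes was not tested. Replicate 1 of the trypsinized and mock sorted groups was left out in a further fit. The lymphocyte sums of their remaining arrays still lay above the untrypsinized ones, so that fit does not test the part of lymphocytes. In it the Fos and Fosl2 changes were about as large, with fewer arrays, and Fosl1 and Jun passed after trypsin. Fos was at 0.15 after trypsin (limma adjusted p = 0.0527) and Fosl2 at -0.14 (limma adjusted p = 0.0757). Fosl2 in mock sorted over trypsinized cells was at -0.17 (limma adjusted p = 0.139).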

How the data were processed

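RNA of 9 mouse mammary cell preparations was measured on Affymetrix whole-transcript arrays, and the samples were grouped by their labels. The authors deposited 1 intensity per row and array on a linear scale, in 35512 rows. Per the labels, total RNA was labelled with biotin. How probes were summarised, background-corrected and scaled is not stated in the labels or notes used here, and the submitters' processing notes name limma. The number of arrays limits the precision, and the labels name no batch.

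Rows were named through the platform annotation, which can be old: 21789 had 1 symbol, 1621 several and 12102 none. Entrez numbers and the RefSeq gene table (GRCm38.p6) brought 21698 symbols up to date. The row with the highest mean stood for each of 19938 genes, 999 of which had several rows. The members' row identifiers are 10397346 (Fos), 10560481 (Fosb), 10460585 (Fosl1), 10520862 (Fosl2), 10514466 (Jun), 10580282 (Junb), 10572456 (Jund) and 10361091 (Atf3).

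Values were tested as log2(intensity + 1) with limma 3.58.1 in R 4.3.3. The 9 arrays entered 1 model of 3 group means, variances were moderated by empirical Bayes, and p-values were adjusted over all genes (Benjamini-Hochberg). Calls used an adjusted p of 0.05 or below, with and without a fold of at least 1.5. The fit was tested on simulated data. The text names all members, up to 4 genes of each related list with the smallest F-test p, those past the fold threshold, and the 3 nearest profiles of each member that passed the F test. Klf5, Egr1, Mmp3, Mmp13, Jdp2, Atf7 and Notch3 as a marker were named after their values were seen. The members and lists were chosen with earlier results of these data known.

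Same-numbered arrays deviated together between mock sorted and trypsinized groups, with correlations across genes of 0.529, 0.285 and 0.292 for numbers 1, 2 and 3. This pairing is read from the values, since the labels do not state it. Alternatives covered the scaling, the filter on dim genes, the pseudocount (16), the variance model, array weights, the arrays fitted, each array left out in turn and the replicate block. A common median over the genes tested, the block with 6 arrays, and leaving out replicate 1 of both treated groups were added after seeing the data. Adipocyte and myeloid marker lists were also run. After trypsin 7 of 14 adipocyte and 1 of 16 myeloid markers passed as lower, against 11.5% of all genes. In each of these lists 1 marker passed as higher, against 13.9% of all genes.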

Additional observations from a re-analysis of the deposited data

How the results depend on the processing

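With no minimum fold, the count of members called in trypsinized over untrypsinized cells was 4, and between 2 and 4 with 1 array left out. It was 2 (Fosl1 and Jun) without untrypsinized replicate 1, without trypsinized replicate 3, and without replicate 1 of both the trypsinized and mock sorted arrays. It was 1 (Fosl1) with a replicate block on only the 6 arrays of the groups compared. In mock sorted over trypsinized cells the count by limma was 1, and 0 or 1 with 1 array left out. It was 0 with only the 6 arrays, with the replicate block, with both together, with a common median over the genes tested, and without replicate 1 of both groups. In mock sorted over untrypsinized cells it was 5, between 4 and 5 with 1 array left out, and 3 with a common median over all rows. There Jund's change was -0.039 log2 units, opposite in sign to the 0.11 as deposited. The cause of these differences was not tested. The F test kept a count of 3 to 5 in all alternatives run, against 4, and the count at 1.5-fold was 0 in every alternative run.

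The replicate block in the fit of all 9 arrays gave adjusted p of 0.0602 for Fosl2 after trypsin and 0.0557 for Jund in mock sorted over untrypsinized cells. Both pass without the block. Between trypsinized and untrypsinized arrays the same-numbered correlations were 0.110, 0.038 and -0.045, and between mock sorted and untrypsinized arrays 0.325, 0.180 and 0.063, so the numbers were not taken as pairs there. With 3 arrays per group, changes of 0.06 log2 units in size did not pass for Jund and Atf3 after trypsin.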
